A study of Homo sapiens with 9 samples.

Results

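The 35 genes described here encode aminoacyl-tRNA synthetases, 19 of them enzymes of the cytosol and 16 enzymes of the mitochondrion, out of 60715 genes in the count table. The members were taken as a list of symbols, and every one was found under its symbol. RNA came from MDA-MB-231, an established human line from a triple negative breast cancer, cultured in serum-containing medium, infected with lentivirus and sorted by fluorescence. The constructs, as the labels spell them, were RFP (red fluorescent protein, the control, n = 3 libraries), KCNJ2(Kir2.1)-Y242F-EGFP (n = 3), which joins an inwardly rectifying potassium channel with a substituted residue to a green fluorescent protein, and Kv1.5-T2A-his-EGFP (n = 2), a voltage-gated potassium channel followed by the same green protein. The comparisons ask which genes differ in cells made to carry a potassium channel. All groups shared the lentiviral infection and the sort, and the control differed from both others in the colour of its fluorescent protein. Replicate 1 of the latter was not analysed here.

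An aminoacyl-tRNA synthetase joins an amino acid to its matching tRNA, the step that sets which residue a codon stands for. Cytosolic and mitochondrial translation mostly use separate enzymes from separate nuclear genes, named with a final 1 or 2. Exceptions are GARS1 and KARS1, whose single genes supply both compartments and which are counted as cytosolic here. Several cytosolic enzymes sit together in the multi-synthetase complex, held by the scaffolds AIMP1, AIMP2 and EEF1E1. Many cytosolic synthetase genes are known targets of ATF4, the transcription factor of the integrated stress response, which binds C/EBP-ATF elements with the half-sites of both factors side by side.

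Library totals ran from 30970235 to 42753422 counts, and replicate libraries correlated at r = 0.979 to 0.996 across genes, which are not independent replicates. KCNJ2 stood at 842, 1384 and 1188 CPM (counts scaled to the TMM-adjusted depth of the library) in the Kir2.1 libraries and at most 0.105 CPM elsewhere. KCNA5, the Kv1.5 gene, had no count in either library with that label, so those libraries are named by their label throughout and every direction drawn from them is that of the label. The same pair stood apart in markers of dividing cells: MKI67 was at 319 and 67.6 CPM there, against 863 to 1107 CPM in RFP and 672 to 1001 CPM in Kir2.1. In bulk RNA, fewer cells of a kind and less RNA per cell cannot be told apart. Of the line's markers, VIM was at 1747 to 4003 CPM and ESR1, PGR and CDH1 at no more than 0.184 CPM. The list of low markers also held ERBB2 and EPCAM, and its 5 genes summed to 65 to 86.8 CPM per library. Of 3 high markers (VIM, CD44 and EGFR), 1 was called lower in the Kv1.5-labelled libraries against each other group, by the rule given below. Of 2 low markers tested, 1 was called higher there than in Kir2.1. The 4 leukocyte markers summed to 0.105 to 0.308 CPM with CD3E at 0. Separate cultures were sequenced for each line, but nothing says that the lines were made more than once, so p-values measure the spread between cultures.

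Sequences are shown for the start regions of some genes described below, and their part in the differences was not tested. RefSeq promoter windows on GRCh38.p14, running from 250 bases before to 50 after a start site, were present for 30 of the 35 genes, and 9 of these had 2 windows. The C/EBP-ATF element was searched as TGATGNAA on both strands. It was found in 3.62% of all 35116 windows, or in 4.46% of 27305 genes. Among the members it was found in 7 of 16 cytosolic genes with a window (43.8%) and in 1 of 14 mitochondrial genes (7.14%). Stretches around the match are printed 5′ to 3′ on the strand of the gene, with the match in capitals, and stop within 25 bases after the start site. The first 2 belong to enzymes that were lower in Kir2.1 than in RFP, and the next to an enzyme that was higher in the Kv1.5-labelled libraries.
AARS1, chr16:70289666-70289733, minus strand: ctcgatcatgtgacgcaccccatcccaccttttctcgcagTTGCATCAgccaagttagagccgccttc
MARS1, chr12:57488024-57488091, plus strand: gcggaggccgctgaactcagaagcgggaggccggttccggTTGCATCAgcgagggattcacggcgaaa
NARS1, chr18:57621812-57621862, minus strand: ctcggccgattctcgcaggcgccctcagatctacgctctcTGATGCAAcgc
The match began 187 bases before the start site of AARS1 and 4 bases before that of MARS1, where it runs across the start site. In NARS1 it began at base 15, counting the start site as base 1. In the GENCODE 29 annotation the AARS1 stretch lies upstream of the gene, and those of MARS1 and NARS1 lie inside the span of theirs, since other transcripts start further upstream. The other cytosolic genes with a match were CARS1, GARS1, IARS1 and TARS1, and the mitochondrial one was YARS2. HARS1 and HARS2 are neighbours on opposite strands with 84 bases between their RefSeq start sites, so that 1 stretch serves as the start region of both, printed here on the plus strand.
HARS1 and HARS2, chr5:140691371-140691454: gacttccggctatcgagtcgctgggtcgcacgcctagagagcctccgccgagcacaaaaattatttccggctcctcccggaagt
It held none of the searched motifs. The core of the interferon response element, GAAANNGAA on both strands, was in 9.86% of all genes and in 3 of 16 cytosolic members (GARS1, IARS1 and WARS1) and 1 of 14 mitochondrial members (EARS2). The core of the NRF1 element, GCGCANGCG on both strands, was in 9.02% of all genes and in 3 of 16 cytosolic members (FARSB, SARS1 and TARS1) and 3 of 14 mitochondrial members (IARS2, MARS2 and PARS2). A match is a run of letters in a window and does not show binding.

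Cytosolic synthetases were the more abundant set in every library. Levels between genes are given per kilobase of the transcript with the longest coding sequence (CPM per kb). In RFP the cytosolic median was 84.8 CPM per kb, from 26.1 for FARSB, the beta subunit of the phenylalanine enzyme, to 268 for TARS1, the threonine enzyme. The mitochondrial median was 12.3 CPM per kb, from 0.0418 for VARS2 to 58.8 for IARS2, the isoleucine enzyme. TARS1, at 248 to 283 CPM per kb over the RFP libraries, overlapped the serine enzyme SARS1, at 206 to 259, and both lay above the glycine enzyme GARS1, at 172 to 193. From KARS1, the lysine enzyme, at a mean of 131, down to LARS1, the leucine enzyme, at 54.3, each gene in the order overlapped its neighbour. NARS1, the asparagine enzyme, was the next step down at 44.2 to 50.4 CPM per kb. FARSB was the only cytosolic member ranked among the mitochondrial ones, below CARS2 and YARS2. IARS2 was the only mitochondrial member ranked among the cytosolic ones.

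**Figure D1:**
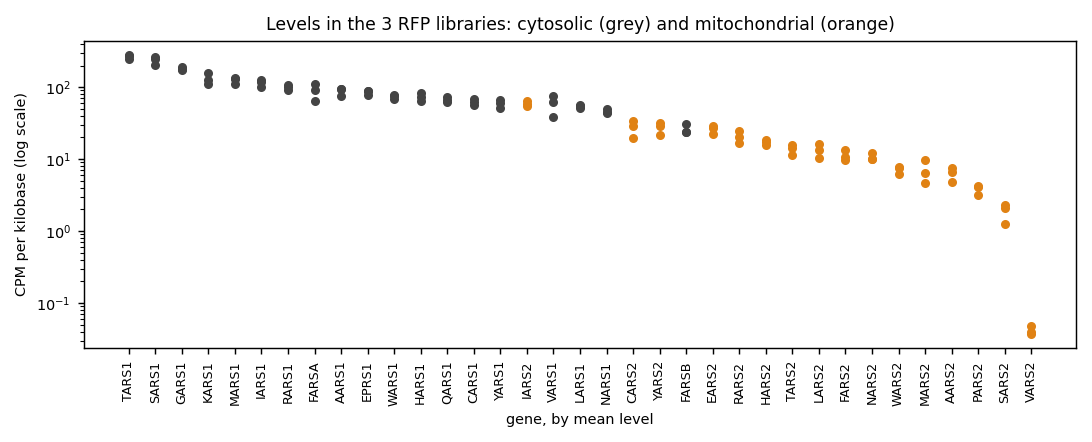
Level of each synthetase gene in the 3 RFP libraries (points), in CPM per kilobase on a log axis, ordered by mean, with cytosolic genes in grey and mitochondrial genes in orange. TARS1, SARS1 and GARS1 lead, and VARS2 lies far below the rest at a mean of 0.0418 CPM per kb.

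VARS2 rested on few counts, 5 to 6 per RFP library and 10 to 17 in each of the others, so its values carry wide errors. SARS2 was also low, at 1.87 to 5.18 CPM, and shares 46.2% of its exonic bases with another annotated gene on the same strand. The labels do not say how reads were counted, nor whether by strand. Reads of such overlaps therefore cannot be assigned with certainty, which also touches VARS2 (22% shared with GTF2H4 on the same strand), MARS1 (12.4% with DDIT3 and ARHGAP9 on the opposite strand), HARS2 (11.7%), WARS1 (10.6%) and HARS1 (8.38%), each with the opposite strand.

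The summed cytosolic level separated the 3 groups. It was 2104, 1948 and 1771 CPM per kb in RFP, 1651, 1482 and 1527 in Kir2.1, and 2759 and 2461 in the Kv1.5-labelled libraries. No library of one group reached into the range of another. Set against the RFP mean of 1941 ± 167 (SD, n = 3), Kir2.1 libraries stood at 76.3% to 85.1% and those labelled Kv1.5 at 127% and 142%. The summed mitochondrial level was 267, 259 and 231 CPM per kb in RFP, 265, 248 and 248 in Kir2.1 and 252 and 262 in the Kv1.5-labelled libraries, and the groups overlapped. The ratio of cytosolic to mitochondrial level was 7.52 to 7.87 in RFP, 5.98 to 6.23 in Kir2.1, and 11.0 and 9.40 in the Kv1.5-labelled libraries. GARS1 and KARS1, which supply both compartments, were in the cytosolic sum alone. Their means were 181 and 131 CPM per kb in RFP, 132 and 91.2 in Kir2.1, and 338 and 102 in the Kv1.5-labelled libraries. The mitochondrial sum and the ratio depend on that choice. All members together took 0.598% to 0.668% of counts in RFP, 0.523% to 0.553% in Kir2.1, and 0.865% and 0.742% in the Kv1.5-labelled libraries. These sums are weighted to the abundant genes, and no test was run on them.

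**Figure D2:**
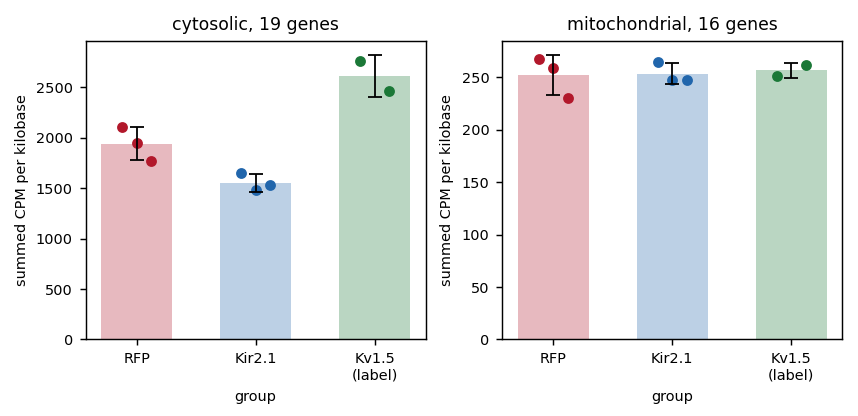
Summed level of the 19 cytosolic and the 16 mitochondrial genes in each library (points), in CPM per kilobase, with the group mean (bar) and SD (line). GARS1 and KARS1, which supply both compartments, are counted as cytosolic only. The cytosolic sum runs from 1482 to 1651 in Kir2.1, 1771 to 2104 in RFP and 2461 to 2759 in the Kv1.5-labelled libraries, while the mitochondrial sums overlap.

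Between Kir2.1 and RFP, the cytosolic enzymes that passed the test were all lower in Kir2.1: MARS1, SARS1 and AARS1, which charge tRNAs with methionine, serine and alanine. A gene was called changed at an adjusted p under 0.05 by edgeR's quasi-likelihood test with Benjamini-Hochberg adjustment over all 16687 genes tested, and all 35 members were among these. By that rule 20.5% of all genes were called in this comparison, 12.2% higher and 8.26% lower. Of the 19 cytosolic members 0 were higher and 3 lower, a share called of 15.8%, below the background. The direction of the whole list was less even: 13 of 19 fitted log2 fold changes were below 0, with a median of -0.34 beside -0.0067 over all genes. At an unadjusted p under 0.05 there were 8 cytosolic members, beside 34.6% of all genes. DESeq2 called 5, all lower, beside 23.8% of all genes. Without Kir2.1 replicate 2 the edgeR count was 1. There 1975 of 16668 genes tested were called, beside 3418 of 16687 in the main fit.

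MARS1 (ENSG00000166986.15, chromosome 12, 57475445 to 57517569) stood at 389, 382 and 318 CPM in RFP and 204, 178 and 197 CPM in Kir2.1. The lowest RFP library was well above the highest Kir2.1 library. It fell by 0.91 on the log2 scale (SE 0.17, adjusted p = 0.00293), and this was the 1 member call in the comparison that held under each of 16 alternatives. DDIT3, the stress-response factor whose exons overlap those of MARS1 on the opposite strand, also fell by 0.98 (adjusted p = 0.0132), from 47.0 to 72.6 CPM in RFP to 28.4 to 34.3 CPM in Kir2.1. The part of such overlapping reads in the MARS1 value was not tested.

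SARS1 (ENSG00000031698.13, chromosome 1, 109213918 to 109238169) was at 488, 460 and 388 CPM in RFP and 277, 238 and 267 CPM in Kir2.1. Here too the groups lay apart. It fell by 0.77 on the log2 scale (SE 0.17, adjusted p = 0.00771), and by 0.71 without Kir2.1 replicate 2 (adjusted p = 0.0555). AARS1 (ENSG00000090861.17, chromosome 16, 70252295 to 70289543), which carries the element printed above, was at 332, 326 and 263 CPM in RFP and 188, 187 and 199 CPM in Kir2.1. The Kir2.1 libraries were close together and all below RFP. It fell by 0.69 (SE 0.19, adjusted p = 0.022). The log2 fold change was -0.63 to -0.71 without RFP replicate 1, RFP replicate 2 or any single Kir2.1 library, but the call was lost there, with adjusted p of 0.062 to 0.089.

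Other cytosolic members had values below RFP in every Kir2.1 library without passing the test. KARS1 (chromosome 16, 75627474 to 75648643) was at 376, 303 and 270 CPM in RFP and 261, 195 and 207 CPM in Kir2.1. The Kv1.5-labelled libraries, at 210 and 282 CPM, overlapped both groups, with a log2 fold change of -0.36 against RFP (adjusted p = 0.241). In Kir2.1 against RFP KARS1 had -0.52 (SE 0.20, adjusted p = 0.0889). RARS1, the arginine enzyme, had -0.49 (SE 0.17, adjusted p = 0.0657). EPRS1, the fused glutamate and proline enzyme, had -0.42 (SE 0.16, adjusted p = 0.0856). RARS1 was called lower under 6 of 16 alternatives, with adjusted p of 0.0375 to 0.0475: DESeq2, the replicate block, only the 2 groups compared, and without Kir2.1 replicate 1 or either Kv1.5-labelled library. KARS1 was called with the replicate block (adjusted p = 0.0488) and EPRS1 with DESeq2 (adjusted p = 0.0357). In all, 11 of 19 cytosolic members lay below RFP without overlap and 1, NARS1, above, where 20.8% of all genes lay below and 23.9% above in this way. NARS1 had a log2 fold change of 0.32 (SE 0.16, adjusted p = 0.175).

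In the Kv1.5-labelled libraries against RFP, 5 cytosolic synthetases were higher and 2 lower. YARS1, the tyrosine enzyme, and NARS1 rose most, followed by GARS1, LARS1 and SARS1, while QARS1, the glutamine enzyme, and HARS1, the histidine enzyme, fell. The share called, 7 of 19 or 36.8%, stood beside 33.7% of all genes (18.1% higher and 15.6% lower), so it was near the background. The median log2 fold change was 0.34, beside 0.019 over all genes, and 14 of 19 values were above 0. The median was 0.16 without the first of the Kv1.5-labelled libraries (replicate 2) and 0.49 without the other (replicate 3).

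YARS1 (ENSG00000134684.11, chromosome 1, 32775237 to 32818153) was at 217, 193 and 167 CPM in RFP, 232, 187 and 214 CPM in Kir2.1 and 679 and 613 CPM in the Kv1.5-labelled libraries. Both of the latter were far above every other library. It rose by 1.75 in log2 terms (SE 0.20, adjusted p = 5.52e-05), or 3.36-fold. NARS1 (ENSG00000134440.12, chromosome 18, 57600656 to 57622213) was at 156, 137 and 139 CPM in RFP, 175, 192 and 174 CPM in Kir2.1 and 388 and 416 CPM in the Kv1.5-labelled libraries, again with no overlap. It rose by 1.48 (SE 0.18, adjusted p = 8.74e-05), or 2.79-fold. These 2 genes were also the only members in the authors' deposited table for this comparison, out of 2178 genes there, at 1.48 for NARS1 and 1.75 for YARS1. That table was made from the same counts and adds no separate evidence, and the authors' deposited table for Kir2.1 against RFP holds 0 members among 1139 genes. The deposited lists are shorter than the 5624 and 3418 genes called here, in turn, so absence from them is not set against the calls.

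GARS1 (ENSG00000106105.15, chromosome 7, 30594681 to 30634033) was at 508, 470 and 452 CPM in RFP, 374, 316 and 351 CPM in Kir2.1 and 1049 and 731 CPM in the Kv1.5-labelled libraries. The groups lay apart, though the Kv1.5-labelled libraries differed from each other. It rose by 0.90 over RFP (SE 0.21, adjusted p = 0.00564). SARS1 stood at 760 and 730 CPM in the Kv1.5-labelled libraries and rose by 0.74 over the RFP values given above (SE 0.19, adjusted p = 0.0101). These 4 genes and the mitochondrial PARS2 were the calls of this comparison that held under each of the 16 alternatives.

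LARS1 (ENSG00000133706.19, chromosome 5, 146113038 to 146182660) was at 244, 265 and 268 CPM in RFP, 262, 289 and 293 CPM in Kir2.1 and 363 and 525 CPM in the Kv1.5-labelled libraries. The second of these libraries was the higher one, the reverse of GARS1. The rise of 0.78 (SE 0.20, adjusted p = 0.0109) was 0.49 without replicate 3 (adjusted p = 0.1). QARS1 (ENSG00000172053.18, chromosome 3, 49095932 to 49105135) was at 179, 207 and 186 CPM in RFP, 237, 203 and 208 CPM in Kir2.1 and 131 and 73.6 CPM in the Kv1.5-labelled libraries. Both were below all other libraries, replicate 3 by the larger gap. QARS1 fell by 0.90 (SE 0.24, adjusted p = 0.0134), and by 0.54 without replicate 3 (adjusted p = 0.0936).

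HARS1 (ENSG00000170445.16, chromosome 5, 140673904 to 140691862) was at 200, 180 and 159 CPM in RFP, 197, 150 and 143 CPM in Kir2.1 and 132 and 104 CPM in the Kv1.5-labelled libraries. It fell by 0.61 (SE 0.22, adjusted p = 0.0472), close to the threshold. The call was lost under 8 of 16 alternatives, where the log2 fold change was -0.44 to -0.61 and adjusted p 0.0509 to 0.218. Those were upper quartile scaling, the replicate block, only the 2 groups compared, and leaving out RFP replicate 1 or 2, Kir2.1 replicate 2 or 3, or replicate 3 of the Kv1.5-labelled libraries. HARS2 (ENSG00000112855.17, chromosome 5, 140691426 to 140699318), which shares the printed start region, was at 46.3, 42.5 and 38.7 CPM in RFP, 55.6, 44.3 and 45.8 CPM in Kir2.1 and 44.6 and 46.0 CPM in the Kv1.5-labelled libraries. Its groups overlapped, with a log2 fold change of 0.092 (SE 0.19, adjusted p = 0.745). The difference between the neighbours' changes was not tested.

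**Figure D3:**
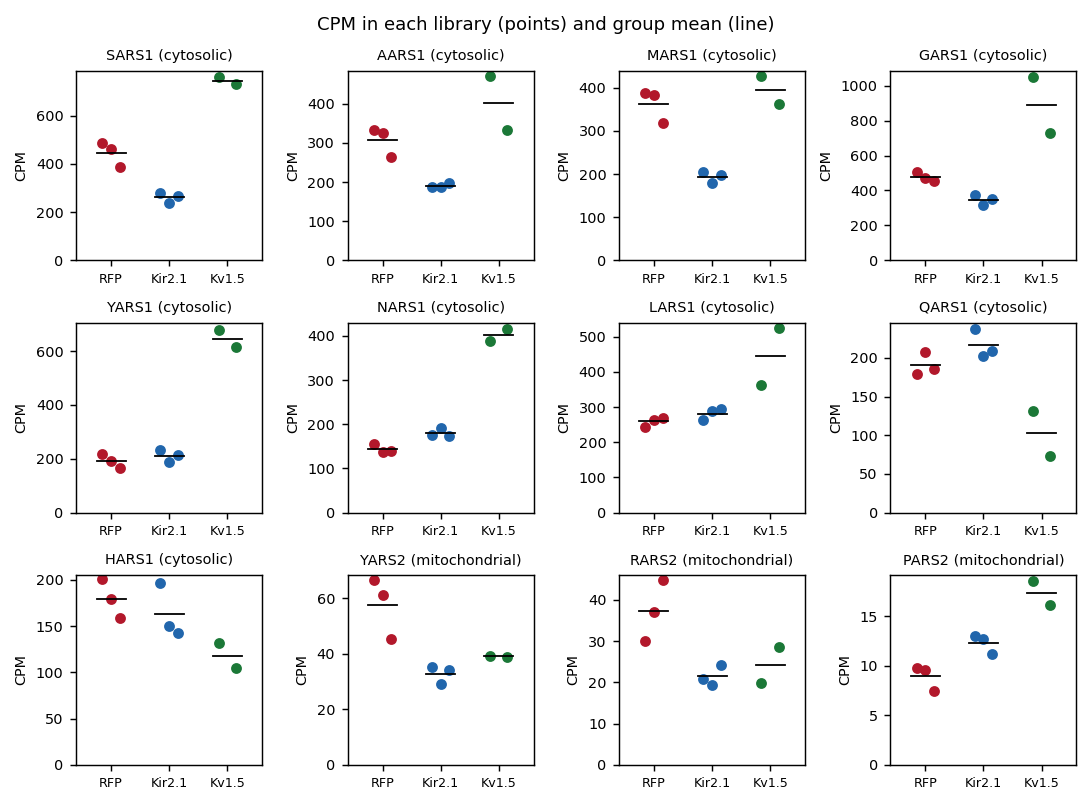
CPM of 12 synthetase genes in each library (points) with the group mean (line), each panel starting at 0. SARS1 is lowest in Kir2.1 and highest in the Kv1.5-labelled libraries, YARS1 and NARS1 are highest in the latter, and QARS1 is lowest there.

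Between the lines with EGFP constructs, 11 of 19 cytosolic members were higher in the Kv1.5-labelled libraries than in Kir2.1 and 1 was lower. That is 63.2% called, beside 16.8% of all genes (8.79% higher and 7.99% lower). The median log2 fold change was 0.64 beside 0.0051 over all genes, and 13 members lay above Kir2.1 and 2 below it without overlap. Over all genes 23.3% lay above and 24.4% below in this way. The count of 12 was 8 without Kir2.1 replicate 2. There 1384 of 16668 genes tested were called, beside 2801 of 16687 in the main fit. The median was 0.53 to 0.68 with single libraries left out. This comparison shares libraries with both others, so its values are another view of the same counts.

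The largest differences were those of YARS1, at 1.61 (SE 0.19, adjusted p = 0.000407), SARS1, at 1.51 (SE 0.19, adjusted p = 0.00053), and GARS1, at 1.36 (SE 0.21, adjusted p = 0.0015). For YARS1 the gap came with Kir2.1 values that overlapped RFP. SARS1 and GARS1 had Kir2.1 values below RFP and Kv1.5-labelled values above it. NARS1 was higher by 1.16 (SE 0.18, adjusted p = 0.00151), AARS1 by 1.07 (SE 0.20, adjusted p = 0.00516) and MARS1 by 1.03 (SE 0.19, adjusted p = 0.00407). AARS1 reached 470 and 332 CPM in the Kv1.5-labelled libraries and MARS1 427 and 363 CPM, so replicate 3 of each was inside the RFP range. DDIT3 was higher by 1.96 in the same comparison (adjusted p = 0.000806), and its part in the MARS1 value was not tested.

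WARS1 (ENSG00000140105.18, chromosome 14, 100333788 to 100376805), the tryptophan enzyme and an interferon-responsive gene, was at 232, 243 and 213 CPM in RFP, 175, 167 and 187 CPM in Kir2.1 and 371 and 277 CPM in the Kv1.5-labelled libraries. The 3 groups did not overlap. It was higher by 0.88 in the Kv1.5-labelled libraries than in Kir2.1 (SE 0.19, adjusted p = 0.0097), with 0.50 against RFP (adjusted p = 0.0624), or 0.70 without replicate 3 of the Kv1.5-labelled libraries (adjusted p = 0.0261). Of 7 other interferon-responsive genes listed, IDO1 was called higher and GBP1 and PSMB9 lower in the Kv1.5-labelled libraries than in Kir2.1 (42.9%, beside 16.8% of all genes). In Kir2.1 against RFP 3 of the 7 were higher and 0 lower (42.9%, beside 20.5%), with a median of 1.11. WARS1 had -0.38 there (adjusted p = 0.138). In the Kv1.5-labelled libraries against RFP 2 of the 7 were higher and 1 lower (42.9%, beside 33.7%).

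The remaining calls were those of CARS1, LARS1, IARS1, EPRS1 and QARS1. CARS1, the cysteine enzyme, was higher by 0.97 (adjusted p = 0.0138), but by 0.59 (adjusted p = 0.082) without replicate 2 of the Kv1.5-labelled libraries and by 0.86 (adjusted p = 0.0657) without Kir2.1 replicate 2. LARS1 was higher by 0.66 (adjusted p = 0.0424), IARS1 by 0.64 (adjusted p = 0.0386) and EPRS1 by 0.58 (adjusted p = 0.0439). These 3 lay close to the threshold and lost the call under 7, 8 and 10 of 16 alternatives, including the loss of any single Kir2.1 library, of RFP replicate 2 or of replicate 3 of the Kv1.5-labelled libraries. LARS1 was at 0.36 (adjusted p = 0.312) without that replicate 3. QARS1 was lower by 1.08 (SE 0.24, adjusted p = 0.0119), and by 0.73 without replicate 3 (adjusted p = 0.0701). QARS1 was thus the 1 cytosolic member whose called difference ran against the rest.

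**Figure D4:**
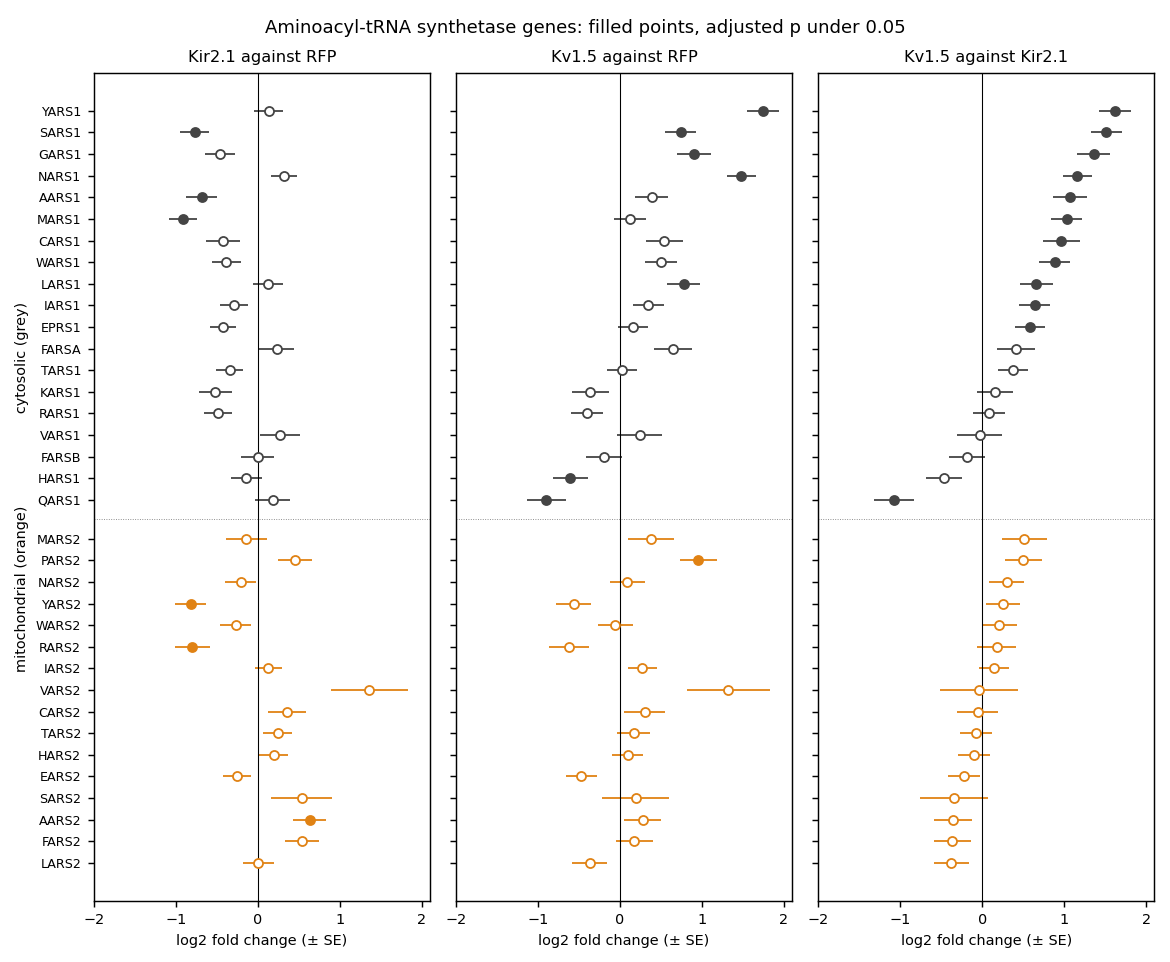
Fitted log2 fold change (± SE) of each member in the 3 comparisons, with filled points at an adjusted p under 0.05, grey for cytosolic and orange for mitochondrial genes, ordered within each by the difference between the Kv1.5-labelled libraries and Kir2.1. In that comparison 11 cytosolic points are filled above 0 and 1 below, and no mitochondrial point is filled.

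Among the cytosolic members, 13 are on a list of known ATF4 targets, which was chosen with earlier results of these data known and so is no independent evidence of direction. Of these 13 cytosolic members, 11 were higher in the Kv1.5-labelled libraries than in Kir2.1, with TARS1 at 0.37 (adjusted p = 0.181) and VARS1, the valine enzyme, at -0.031 (adjusted p = 0.955) not passing. The median of the 13 was 0.97, and the share called was 84.6%, beside 16.8% of all genes. Against RFP all 13 fitted values in the Kv1.5-labelled libraries were above 0, although TARS1 and VARS1 turned below 0 with some single libraries left out. There 5 of the 13 were called, all higher, a share of 38.5% beside 33.7% of all genes (18.1% higher). In Kir2.1 against RFP 3 of the 13 were called, all lower, or 23.1% beside 20.5% of all genes (8.26% lower). Of the 6 other cytosolic members (FARSA, FARSB, HARS1, KARS1, QARS1 and RARS1), 0 were higher in any comparison. In the Kv1.5-labelled libraries 2 were lower than RFP (33.3%) and 1 was lower than Kir2.1 (16.7%). Over all genes 15.6% and 7.99% were lower, in turn, and 33.7% and 16.8% were called in either direction. With 6 genes these member shares rest on 2 genes and 1. FARSA, the alpha subunit of the phenylalanine enzyme, had 0.65 against RFP in the Kv1.5-labelled libraries (adjusted p = 0.0527), where its partner FARSB had -0.19 (adjusted p = 0.532). FARSA was called higher under 5 of 16 alternatives: no filter, DESeq2, limma voom, the replicate block (0.83, adjusted p = 0.0086) and without RFP replicate 1 (0.82, adjusted p = 0.0264).

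Grouped by the letters in their promoters, the 7 cytosolic genes with TGATGNAA had 6 members higher and 0 lower in the Kv1.5-labelled libraries than in Kir2.1, with a median of 1.03. The 9 with a window but no match had 3 higher and 1 lower, with a median of 0.15. Over all genes 8.79% were higher and 7.99% lower. SARS1, WARS1 and EPRS1 were called higher and QARS1 lower without a match, and YARS1 and LARS1 had no window to search. In Kir2.1 against RFP the groups were much alike, with medians of -0.43 with a match and -0.38 without. There 2 and 1 were called lower and 0 higher. In the Kv1.5-labelled libraries against RFP the medians were 0.385 and -0.19. There 2 were higher and 0 lower with a match, and 1 higher and 2 lower without. Over all genes 20.5% and 33.7% were called in these comparisons, in turn. All 7 genes with a match are also on the ATF4 list, so the groupings are not separate.

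Genes of the integrated stress response also differed between the groups, and their part in the synthetase differences was not tested. Of 17 listed, 11 were higher and 0 lower in the Kv1.5-labelled libraries than in RFP (64.7%, beside 18.1% of all genes higher). There 13 were higher than in Kir2.1 (76.5%, beside 8.79% of all genes higher). In Kir2.1, 5 were lower than in RFP (29.4%, beside 8.26% of all genes lower). ATF4 was at 360, 426 and 364 CPM in RFP, 182, 139 and 203 CPM in Kir2.1 and 295 and 418 CPM in the Kv1.5-labelled libraries. Its RNA fell by 1.14 in Kir2.1 (adjusted p = 0.00218) and had a log2 fold change of -0.11 in the Kv1.5-labelled libraries (adjusted p = 0.755), whose values overlapped RFP. ATF4 is known to be controlled largely in translation, which RNA counts do not measure. CEBPG, a partner of ATF4, was at 103 to 104 CPM in RFP, 53.6 to 61.4 CPM in Kir2.1 and 216 and 181 CPM in the Kv1.5-labelled libraries. It was called in each comparison, at -0.86, 0.94 and 1.80. TRIB3 and CHAC1, usual ATF4 targets, rose by 3.15 and 3.23 over RFP in the Kv1.5-labelled libraries and had 0.39 and 0.072 in Kir2.1, neither called.

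By place in the cell, the 7 members of the multi-synthetase complex (EPRS1, IARS1, KARS1, LARS1, MARS1, QARS1 and RARS1) gave 4 higher and 1 lower in the Kv1.5-labelled libraries than in Kir2.1, with a median of 0.58. The 12 cytosolic members outside it gave 7 higher and 0 lower, with a median of 0.92. The shares called were 71.4% in the complex and 58.3% outside it, beside 16.8% of all genes. The scaffolds AIMP1, AIMP2 and EEF1E1 gave 0 calls in the 3 comparisons, with log2 fold changes from -0.44 to 0.71. With 3 genes this does not set them apart from all genes, of which 16.8% to 33.7% were called. By structural class, in the Kv1.5-labelled libraries against Kir2.1, 7 of 10 class I enzymes were higher and 1 lower (80% called). Of 9 class II enzymes 4 were higher and 0 lower (44.4% called), beside the same 16.8% of all genes. XPOT, which exports mature tRNA from the nucleus, was at 313, 354 and 345 CPM in RFP, 140, 173 and 192 CPM in Kir2.1 and 279 and 274.8 CPM in the Kv1.5-labelled libraries. It fell by 1.00 in Kir2.1 (adjusted p = 0.0018), the 1 call there among 10 listed synthetase partners and proofreading genes (10%, beside 20.5% of all genes). In the Kv1.5-labelled libraries 2 of the 10 were higher than RFP (20%, beside 33.7%) and 3 higher than Kir2.1 (30%, beside 16.8%). EEF2, the factor that moves the ribosome along, fell by 0.87 in Kir2.1 (adjusted p = 0.0126) and by 1.63 in the Kv1.5-labelled libraries (adjusted p = 0.000486). It was the 1 call among 4 cytosolic elongation factors tested in each comparison with RFP (25%, beside 20.5% and 33.7% of all genes).

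**Figure D5:**
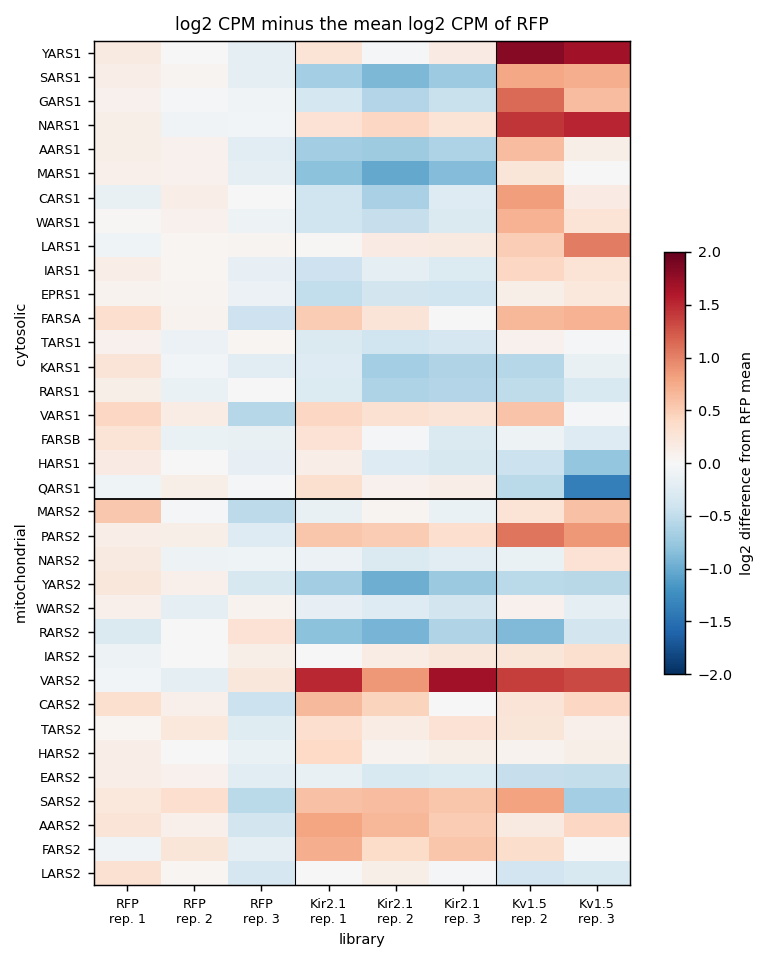
Log2 CPM of each member in each library minus the mean log2 CPM of RFP, with red above and blue below and a line between cytosolic and mitochondrial genes. SARS1, GARS1 and AARS1 are blue in Kir2.1 and red in the Kv1.5-labelled libraries, and QARS1 is darkest blue in replicate 3 of the latter.

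Few mitochondrial synthetases passed the test. In Kir2.1 against RFP, 1 of 16 was higher (AARS2, the alanine enzyme) and 2 were lower (YARS2 and RARS2, the tyrosine and arginine enzymes). The share called was 18.8%, beside the 20.5% of all genes given above, and the median was 0.16. In the Kv1.5-labelled libraries against RFP, 1 of 16 was higher (PARS2, the proline enzyme) and 0 lower, a share of 6.25% beside 33.7% of all genes, with a median of 0.17. Between the Kv1.5-labelled libraries and Kir2.1, 0 of 16 were called by edgeR, DESeq2 or limma voom, beside 16.8% of all genes by edgeR, 1 had an unadjusted p under 0.05, and the median was -0.047. A direction is not given for that median, since it was 0.047 with the replicate block and up to 0.052 with single Kir2.1 libraries left out.

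YARS2 (ENSG00000139131.13, chromosome 12, 32727490 to 32755902) was at 66.5, 61.2 and 45.4 CPM in RFP, 35.2, 28.9 and 34.1 CPM in Kir2.1 and 39.3 and 38.8 CPM in the Kv1.5-labelled libraries. All 5 libraries outside RFP lay below it. It fell by 0.82 in Kir2.1 (SE 0.19, adjusted p = 0.00948), and by 0.74 without Kir2.1 replicate 2 (adjusted p = 0.0596). It had -0.56 in the Kv1.5-labelled libraries (adjusted p = 0.0596), called with DESeq2 and without RFP replicate 3 (-0.72, adjusted p = 0.0198). RARS2 (ENSG00000146282.18, chromosome 6, 87514378 to 87590003) was at 30.1, 37.0 and 44.8 CPM in RFP, 20.7, 19.3 and 24.3 CPM in Kir2.1 and 19.9 and 28.6 CPM in the Kv1.5-labelled libraries, again all below RFP. It fell by 0.80 in Kir2.1 (SE 0.22, adjusted p = 0.0215). Its call was not kept without RFP replicate 2 or 3 or Kir2.1 replicate 1 or 2, with adjusted p of 0.0656 to 0.0978.

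AARS2 (ENSG00000124608.5, chromosome 6, 44299654 to 44313326) was at 28.6, 25.7 and 18.6 CPM in RFP, 41.5, 37.8 and 33.8 CPM in Kir2.1 and 27.0 and 31.9 CPM in the Kv1.5-labelled libraries. Its rise of 0.63 in Kir2.1 (SE 0.20, adjusted p = 0.0442) was close to the threshold. The call was lost with RLE factors and without RFP replicate 2 or 3 or any single Kir2.1 library, with adjusted p of 0.0508 to 0.127. Without Kir2.1 replicate 2 no mitochondrial member was called in Kir2.1 against RFP, and without RFP replicate 2 or 3 or Kir2.1 replicate 1 there was 1. Calls over all genes were also fewer in these settings, 1975 to 2701 beside 3418 in the main fit. PARS2 (ENSG00000162396.6, chromosome 1, 54756898 to 54764514) was at 9.78, 9.63 and 7.42 CPM in RFP, 13.0, 12.7 and 11.2 CPM in Kir2.1 and 18.6 and 16.1 CPM in the Kv1.5-labelled libraries. The 3 groups lay apart, lowest in RFP and highest in the Kv1.5-labelled libraries. It rose by 0.96 over RFP in the Kv1.5-labelled libraries (SE 0.23, adjusted p = 0.00716) and had 0.46 in Kir2.1 (adjusted p = 0.14). The mitochondrial count against RFP in the Kv1.5-labelled libraries was 2 without RFP replicate 1 and 3 without RFP replicate 3, with each added call lower. Over all genes 4901 of 16534 and 5127 of 16567 were called there, beside 5624 of 16687 in the main fit.

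Enzymes for the same amino acid in the 2 compartments were set side by side. Among 13 amino acids with 1 gene for each compartment, the cytosolic log2 fold change was below the mitochondrial one in 9 for Kir2.1 against RFP. It was above in 9 for the Kv1.5-labelled libraries against RFP and above in 11 between the 2. These are fitted values side by side, and the difference within a pair was not tested. For alanine, AARS1 had -0.69 and AARS2 0.63 in Kir2.1 against RFP, both called, and the ratio of their levels per kilobase was 14.0 in RFP, 5.61 in Kir2.1 and 15.1 in the Kv1.5-labelled libraries. For tyrosine, YARS1 had 1.75 and YARS2 -0.56 in the Kv1.5-labelled libraries against RFP, and the ratio was 2.18 in RFP, 4.23 in Kir2.1 and 10.8 in the Kv1.5-labelled libraries. For arginine, RARS1 and RARS2 were both below 0 in each comparison with RFP. The mitochondrial translation factors gave 1 call in all, MTRF1L, a release factor, lower in Kir2.1 at -0.67 (adjusted p = 0.0476). That is 11.1% of the 9 factors, beside 20.5% of all genes.

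The Kv1.5-labelled libraries were not alike within the set. From replicate 2 to the other, 13 of 19 cytosolic members were lower and 6 higher, with QARS1 at -0.83, CARS1 at -0.68 and LARS1 at 0.53 on the log2 scale. The summed level of MKI67 and TOP2A, a second gene of dividing cells, was 729 CPM in replicate 2 and 166 CPM in replicate 3, against 1973 to 2132 CPM in RFP and 1275 to 1760 CPM in Kir2.1. Against RFP in the Kv1.5-labelled libraries MKI67 fell by 2.37 and TOP2A fell by 2.09. Their part in the synthetase differences was not tested.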

How the data were processed

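The authors deposited raw counts per Ensembl gene, as whole numbers, for 8 libraries of sorted MDA-MB-231 lines. The submitters' processing notes name FastQC, Trimmomatic, STAR, edgeR and the build GRCh38 and no versions. Per the labels' protocols the mRNA kit kept strand and reads were single-end. The counter, its strand setting and the annotation used are not given in the sources consulted. The authors' deposited comparison tables hold log2 fold changes and adjusted p-values for listed genes alone.

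Members and lists were chosen with earlier results of these data known. Symbols matched 60445 of 60715 IDs, and GENCODE 29 gave positions for 58497. In R 4.3.3, edgeR 4.0.16 fitted all 8 libraries by group (TMM, filterByExpr, robust quasi-likelihood, 16687 genes tested, 5 residual degrees of freedom), and p-values were adjusted by Benjamini-Hochberg over all tested genes and called at 0.05. CPM uses TMM-scaled library sizes, and the SE comes from the F statistic. The design had assumed 9 libraries. The test was checked on simulated counts. Replicate numbers were not used as pairs in the main fit. Deviations of same-numbered libraries correlated at -0.111 to 0.181 and those of differently numbered ones at -0.218 to 0.137. Deviations of the 2 Kv1.5-labelled libraries mirror each other by construction, so this check cannot exclude pairing. Counts of replicates differed by more than sampling noise (chi-square 28.7 to 185 per degree of freedom). Named with every library value were the 5 largest called rises and falls per comparison, KARS1, GARS1, WARS1, HARS1 and HARS2. Other members and context genes were named after their values were seen. The 16 alternatives took in upper quartile and RLE scaling, no filter, at least 1 CPM in 2 libraries, DESeq2 1.42.0, limma 3.58.1 voom, only the 2 groups compared, the replicate block and each library left out. A threshold of 0.01 was tried beside them. A comparison of the proteins was planned and was not made.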

Additional observations from a re-analysis of the deposited data

Results flagged for a closer look

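SARS1, the serine enzyme, was the 1 member called in opposite directions against RFP. It fell by 0.77 on the log2 scale in Kir2.1 and rose by 0.74 in the Kv1.5-labelled libraries, and the test of the difference itself, between the Kv1.5-labelled libraries and Kir2.1, gave 1.51 (SE 0.19, adjusted p = 0.00053 by edgeR's quasi-likelihood test). All 3 Kir2.1 libraries lay below RFP and both libraries labelled Kv1.5 above it. The comparisons with RFP share the same 3 control libraries.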

How the results depend on the processing

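No called member turned its sign under any of the 16 alternatives. The calls that every one of them kept were 1 of 6 for Kir2.1 against RFP, 5 of 8 for the Kv1.5-labelled libraries against RFP and 7 of 12 between the channel groups. Of the other members, 5, 6 and 1 in turn were called under at least 1 alternative. The cytosolic count for Kir2.1 against RFP, 3, was 5 with DESeq2, 5 with the replicate block and 5 with only the 2 groups compared, all lower, and 1 to 4 with single libraries left out. The mitochondrial count there, 3, was 1 at an adjusted p under 0.01 and 0 to 4 with single libraries left out. For the Kv1.5-labelled libraries against RFP, the cytosolic count of 7 was 3 at an adjusted p under 0.01. Its median of 0.34 was 0.16 to 0.49 with single libraries left out. The mitochondrial count of 1 was 2 with DESeq2, 2 with the replicate block and 1 to 3 with single libraries left out. Between the Kv1.5-labelled libraries and Kir2.1, the cytosolic count of 12 was 7 at an adjusted p under 0.01 and 8 to 12 with single libraries left out, with a median of 0.53 to 0.68. The mitochondrial count of 0 was 0 to 1 with single libraries left out. The mitochondrial median of -0.047 was 0.047 with the replicate block and -0.080 to 0.052 with single libraries left out. Calls over all genes moved too. With single RFP or Kir2.1 libraries left out they numbered 1975 to 2701 for Kir2.1 against RFP, beside 3418 in the main fit. They numbered 3912 to 5536 in the Kv1.5-labelled libraries against RFP (5624 in the main fit) and 1384 to 2978 against Kir2.1 (2801).

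Uncalled members near 0 changed sign. In Kir2.1 against RFP, LARS2 (0.0087) was -0.018 with RLE factors, -0.0016 with upper quartile factors and -0.018 with DESeq2. In the comparison of the Kv1.5-labelled libraries with Kir2.1, the replicate block gave 0.051 for VARS1, 0.13 for CARS2 and 0.017 for VARS2. With single libraries left out, values in Kir2.1 against RFP ran from -0.16 to 0.14 for FARSB, -0.15 to 0.17 for LARS2 and -0.36 to 0.18 for MARS2. Against RFP in the Kv1.5-labelled libraries they ran from -0.031 to 0.082 for TARS1, -0.092 to 0.52 for VARS1, -0.15 to 0.29 for NARS2, -0.72 to 0.75 for SARS2 and -0.20 to 0.073 for WARS2. Between the Kv1.5-labelled libraries and Kir2.1 they ran from -0.076 to 0.35 for KARS1, -0.029 to 0.20 for RARS1, -0.37 to 0.24 for VARS1, -0.22 to 0.096 for CARS2, -0.16 to 0.0067 for HARS2, -0.11 to 0.41 for RARS2, -1.26 to 0.21 for SARS2 and -0.25 to 0.13 for VARS2. The cause of these changes was not tested. Where leaving out a library left the Kv1.5-labelled group with 1 library, that library was assumed to vary like the other groups. Depth limits VARS2, with at most 17 counts in a library.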
